A study of Mus musculus with 8 samples.

Results

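Scart receptors, Sox13 and genes of interleukin 17 producing gamma delta T cells were followed in mouse splenocytes after dosing with all-trans retinoic acid (tRA). The 8 genes 5830411N06Rik (Scart2), Cd163l1 (Scart1), Sox13, Il23r, Il17a, Zbtb16, Maf and Ccr6, of 51826 genes in the count table, were selected on earlier results of the same comparison. Their values are therefore a description and carry no test. Total RNA of splenocytes from BALB/c mice of 3 months of age was sequenced, with 4 mice given tRA and 4 control mice. The labels name no altered gene, and none of the mice had received pristane, the oil used elsewhere in the study to induce lupus. The treatment text of all 8 samples carries the same daily tRA dose of 1 mg/kg from weaning, so the groups were taken from the sample titles, and the study's methods describe female mice with vehicle as the control. The total count was 30919272 to 37539631 per control mouse and 31810417 to 35165876 per tRA mouse.

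Gamma delta T cells that make interleukin 17 are innate-like lymphocytes that leave the thymus already committed to that cytokine. Sox13, Maf and Zbtb16 are transcription factors used in their development, the Scart proteins are scavenger receptors found on their surface, and Il23r and Ccr6 are receptors for a cytokine that sustains them and for a chemokine that guides them. They are a small population of the spleen, which is mostly B cells and alpha beta T cells.

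The Scart genes stood higher in the tRA mice. 5830411N06Rik, the gene of Scart2 (ENSMUSG00000054672, GRCm38 chromosome 7, 140247284 to 140300736, plus strand), had 110, 198, 252 and 124 counts in control mice 1 to 4 and 414, 339, 639 and 441 counts in tRA mice 1 to 4. In CPM, counts scaled to a common library size with the trimmed mean of M values (TMM), the control mice had 2.98, 6.16, 7.28 and 4.01 and the tRA mice 12.6, 10.7, 17.3 and 13.5. The lowest tRA mouse lay above the highest control mouse, and mouse 3 was the highest of each group. The mean CPM was 5.11 ± 1.97 (SD, n = 4) in control mice and 13.5 ± 2.79 (SD, n = 4) in tRA mice, with a log2 fold change of 1.41 and a standard error of 0.26. Among the 16484 genes that passed the filter on low counts, no gene had a higher log2 fold change in the edgeR fit, a value that belongs to the comparison on which the gene was selected.

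Cd163l1, the gene of Scart1 (ENSMUSG00000025461, chromosome 7, 140218267 to 140231145, plus strand), was counted far less often. The control mice had 23, 36, 41 and 32 counts and the tRA mice 57, 44, 67 and 57. The CPM was 0.623, 1.12, 1.19 and 1.03 in the control mice and 1.74, 1.39, 1.82 and 1.74 in the tRA mice. The groups did not overlap, and control mouse 1 was the lowest of all 8 mice. The log2 fold change was 0.76 with a standard error of 0.24.

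Sox13, a transcription factor of the high mobility group box family (ENSMUSG00000070643, chromosome 1, 133382303 to 133424377, minus strand), had 42, 37, 55 and 39 counts in the control mice and 82, 64, 103 and 76 counts in the tRA mice. The CPM lay between 1.14 and 1.59 in the control mice, with a mean of 1.28 ± 0.21 (SD, n = 4), and between 2.02 and 2.79 in the tRA mice, with a mean of 2.41 ± 0.33 (SD, n = 4). The groups did not overlap, and mouse 3 was again the highest of each group. The log2 fold change was 0.91 with a standard error of 0.19.

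Il23r, the receptor chain specific for interleukin 23 (ENSMUSG00000049093, chromosome 6, 67422932 to 67491855, minus strand), had 17, 18, 16 and 8 counts in the control mice and 26, 21, 29 and 21 counts in the tRA mice. The CPM was 0.46, 0.56, 0.462 and 0.259 in the control mice and 0.794, 0.661, 0.786 and 0.642 in the tRA mice. The groups did not overlap, with control mouse 4 the lowest. Against the filter, a CPM of 0.304, 3 of the 4 control mice and all 4 tRA mice stood above it. The log2 fold change was 0.72 with a standard error of 0.29.

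Il17a, the signature cytokine (ENSMUSG00000025929, chromosome 1, 20730905 to 20734496, plus strand), was near the limit of counting. The control mice had 2, 0, 2 and 0 counts and the tRA mice 8, 7, 0 and 2. The groups overlapped, with tRA mouse 3 at 0, and the gene did not pass the filter, so it was not tested and no fold change is given.

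The remaining members overlapped between the groups. Zbtb16, a zinc finger factor of innate-like lymphocytes (ENSMUSG00000066687, chromosome 9, 48654297 to 48836222, minus strand), had a CPM of 4.82, 5.66, 2.66 and 4.59 in the control mice and 4.58, 4.16, 4.93 and 4.95 in the tRA mice, with a log2 fold change of 0.07 and a standard error of 0.21. Maf (ENSMUSG00000055435, chromosome 8, 115682942 to 115707794, minus strand) had a CPM of 27.9, 26.7, 24.4 and 22.2 in the control mice and 24.4, 24.4, 26.1 and 29.8 in the tRA mice, with a log2 fold change of 0.05 and a standard error of 0.10. Control mouse 3 was the lowest for Zbtb16, whereas it was the highest control mouse for both Scart genes and Sox13. Ccr6, the receptor for the chemokine Ccl20 that is also abundant on B cells (ENSMUSG00000040899, chromosome 17, 8236043 to 8257141, plus strand), had a CPM of 53.5, 59.9, 44.6 and 66.2 in the control mice and 45.5, 65.1, 86.0 and 70.4 in the tRA mice. Its log2 fold change was 0.25 with a standard error of 0.17, and tRA mice 1 and 2 lay inside the control range.

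**Figure D1:**
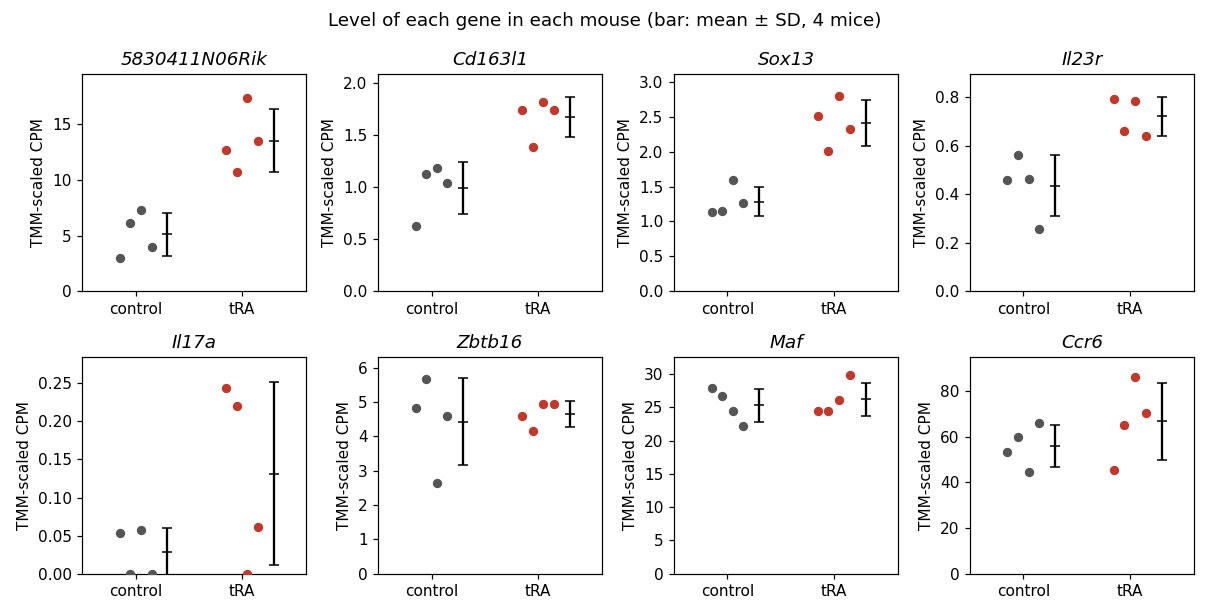
Each panel shows the TMM-scaled CPM (vertical axis, linear, starting at 0) of one gene in the 4 control mice (grey) and 4 tRA mice (red), with bars for the mean and SD. The groups are apart for 5830411N06Rik, Cd163l1, Sox13 and Il23r and overlap for Il17a, Zbtb16, Maf and Ccr6.

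Of the 7 members tested, 4 had all tRA mice above all control mice in CPM, and 1.91% of all genes tested did so. None of the 7 had all tRA mice below all control mice, as 1.63% of all genes tested did. The same 4 were apart in raw counts and with library size alone. By edgeR's quasi-likelihood test at a false discovery rate (FDR) under 0.1, 0 of the 7 members were called, and 0% of all genes tested were, while 1070 of 16484 genes had an unadjusted p under 0.05. DESeq2 gave an adjusted p to 6 members, not to Il23r or Il17a, and called 2 of the 6, 5830411N06Rik and Sox13. It called 27 of the 13625 genes to which it gave an adjusted p, 0.198%. Nothing is read from these counts, since the members were selected on this comparison. With each mouse left out in turn, an alternative chosen after seeing the data, DESeq2 called 5830411N06Rik in every fit and called 1 or 2 members, with Sox13 lost without control mouse 1, 2 or 4 and without tRA mouse 3 or 4. The genes called by DESeq2 numbered 15 to 26 in 7 of these fits, 0.0989% to 0.185% of the genes with an adjusted p, and 551 without tRA mouse 1, 3.92%, which is one of the fits that called Sox13.

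Levels were compared between genes per kilobase of exon. In control mice Ccr6 was the highest at 24.2 ± 3.96 CPM per kilobase (SD, n = 4), followed by Maf at 3.07 ± 0.30, 5830411N06Rik at 0.923 ± 0.355, Zbtb16 at 0.839 ± 0.240, Sox13 at 0.298 ± 0.049, Cd163l1 at 0.257 ± 0.066, Il23r at 0.175 ± 0.051 and Il17a at 0.024 ± 0.028. The neighbours 5830411N06Rik and Zbtb16 overlapped in that order, as did Sox13 with Cd163l1 and Cd163l1 with Il23r. In tRA mice the order was the same, but 5830411N06Rik, at 2.45 ± 0.50 CPM per kilobase, was apart from Zbtb16 at 0.881 ± 0.071 and overlapped with Maf at 3.18 ± 0.31, and Cd163l1 was apart from Il23r.

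The tested genes of the gamma delta T cell receptor all overlapped between the groups. Of all genes tested, 1.91% had all tRA mice above all control mice and 1.63% had them below. With so few genes in the list, nothing is read from that overlap. Trdc, the constant segment of the delta chain, had a CPM of 15.1, 18.8, 24.4 and 15.4 in control mice and 19.9, 16.0, 19.2 and 19.3 in tRA mice, with a log2 fold change of 0.01 and a standard error of 0.15. The log2 fold changes of the gamma constant genes were 0.23 for Tcrg-C1, -0.04 for Tcrg-C2 and 0.08 for Tcrg-C4, and Tcrg-C3 did not pass the filter with 12 counts in all control mice and 6 in all tRA mice. Of the 18 receptor genes listed, 10 could be tested, 0 were called by edgeR, as were 0% of all genes tested, 7 had a positive and 3 a negative fold change, and the median was 0.13 against 0.0014 for all genes tested. Their summed CPM was 30.0, 34.6, 38.5 and 30.0 in the control mice and 35.6, 29.1, 37.0 and 36.1 in the tRA mice. In whole splenocytes, more cells of a type and more RNA per cell cannot be told apart.

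Among 19 other genes of the interleukin 17 type of gamma delta T cell, 18 could be tested and 0 were called by edgeR, as were 0% of all genes tested, with 12 positive and 6 negative fold changes and a median of 0.09. Il17re, a receptor chain for interleukin 17C, had a CPM of 0.758, 0.747, 0.520 and 0.743 in control mice and 1.01, 1.10, 1.36 and 0.764 in tRA mice. The groups were apart by a narrow margin at tRA mouse 4, and the log2 fold change was 0.61 with an edgeR FDR = 0.757. The log2 fold changes were 0.09 for Il1r1, -0.15 for Blk, a kinase that B cells also make, and 0.33 for Il7r, and these groups overlapped. Il17f did not pass the filter, with 18 counts in all control mice and 24 in all tRA mice.

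**Figure D2:**
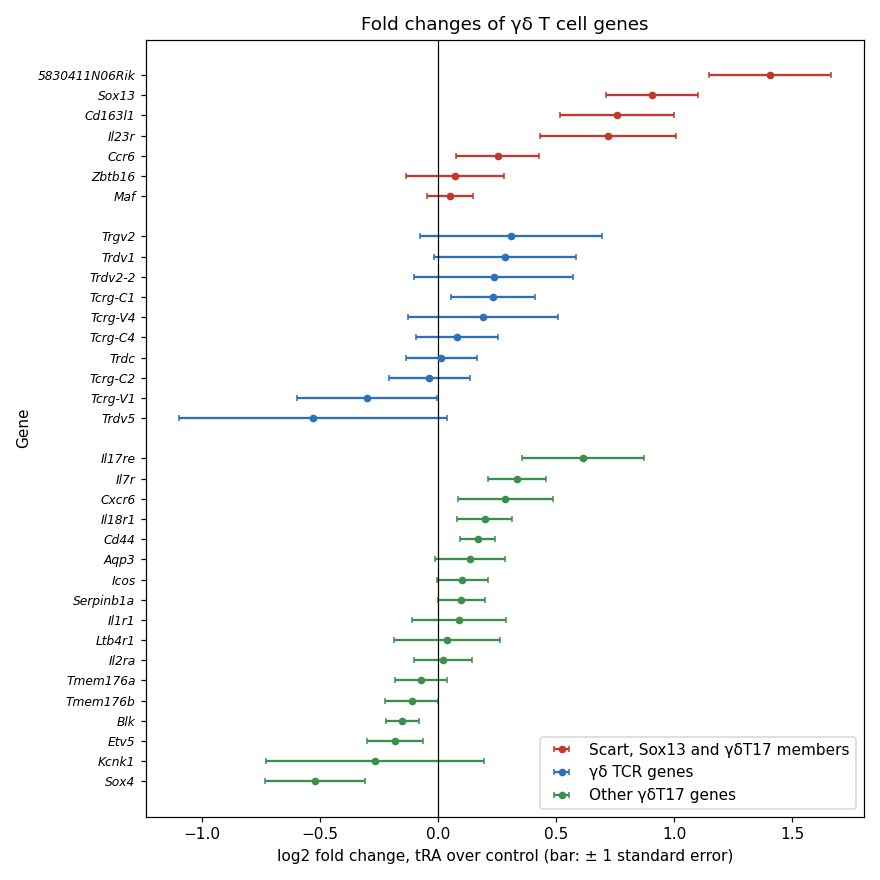
Points show the log2 fold change of tRA over control (horizontal axis) with bars of 1 standard error for the 7 members tested (red), 10 gamma delta T cell receptor genes (blue) and other genes of the interleukin 17 type (green). 5830411N06Rik lies farthest right at 1.41, and Trdc lies near 0 at 0.01.

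Ligands, receptors and signalling genes of the interleukin 23 and interleukin 17 axis were listed apart from the members. Of 8 ligand genes, 4 could be tested, with 1 positive and 3 negative fold changes and a median of -0.04, and the most abundant were Tgfb1 at -0.03 and Il1b at 0.12. The ligand with the lowest value was Il12b, a subunit that interleukin 12 and interleukin 23 share, at -0.87 with a standard error of 0.30 and an edgeR FDR = 0.757, with overlapping groups. All 9 receptor genes had positive log2 fold changes, with a median of 0.13, and the most abundant were Il17ra at 0.07 and Tgfbr2 at 0.06. Of all genes tested, 50.3% had a positive value, and nothing is read from these signs. The highest of the 9 receptor genes was Il17rc, a receptor chain for interleukin 17, at 0.89 with a standard error of 0.34. Its edgeR FDR = 0.757, and its groups overlapped. Il17rc had few counts, 9, 10, 17 and 11 in the control mice and 26, 17, 31 and 14 in the tRA mice. Il12b and Il17rc were named after their values were seen. Among 8 signalling genes, 6 positive and 2 negative, the median was 0.02, with Stat3 at 0.03 and Tyk2 at 0.01. Stat4, a transducer of interleukin 12 and interleukin 23 signals, was apart between groups, with a CPM of 39.6, 33.5, 44.5 and 41.6 in control mice and 46.8, 48.5, 49.9 and 46.4 in tRA mice, a log2 fold change of 0.27 and an edgeR FDR = 0.757.

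Families related to the members were listed in the same way. The 8 transcription factors of the interleukin 17 lineage, 5 positive and 3 negative, had a median log2 fold change of 0.04, with Irf4 at 0.01 and Nfkbiz at -0.09. Of 4 effector cytokines, 2 could be tested, Il21 at -0.12 and Csf2 at 0.53, with standard errors of 0.42 and 0.40. Both had few counts, from 5 to 19 in a mouse, and overlapping groups. The 7 relatives of Sox13 with a high mobility group box, 4 positive and 3 negative, had a median of 0.00067, with Tcf7 at 0.21 and Lef1 at 0.00067. The 3 negative values were those of the Sox genes of the list, Sox4 at -0.52, Sox5 at -0.39 and Sox6 at -0.32, each with overlapping groups. With 1 mouse left out they ranged from -0.66 to -0.33, -0.49 to -0.23 and -0.84 to -0.13 in that order. The 4 relatives of Maf were all negative, with a median of -0.25, Mafk at -0.25 and Mafg at -0.12. Of 14 genes with scavenger receptor cysteine-rich domains or related folds, the family of the Scart proteins, 12 could be tested, 6 positive and 6 negative, with a median of 0.03, Cd6 at 0.08 and Cd5 at 0.14. The 8 genes of interferon gamma type gamma delta T cells, 4 positive and 4 negative, had a median of -0.01, with Cd27 at 0.17 and Il2rb at 0.02. The value farthest from 0 was that of Ifng, the gene of interferon gamma, at -0.55 with a standard error of 0.18 and an edgeR FDR = 0.757, with overlapping groups. Ifng and the 3 Sox genes were named after their values were seen.

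Both Scart genes lie on the plus strand of chromosome 7 with 16138 bases between them, and no annotated gene overlaps either of them or Sox13. No stretch of 50 bases of their transcripts occurs in a transcript of another gene. Of Maf transcripts, 4.64% of such stretches occur elsewhere, and Gm15655 overlaps Maf on the opposite strand, so that reads of these genes may not be told apart. Within 100 kb of 5830411N06Rik or Cd163l1, the other genes tested had log2 fold changes of -0.11 for Mtg1, -0.01 for Paox and -0.31 for the pseudogene Gm45456. Within 100 kb of Sox13, 1 gene of 5 annotated could be tested, Plekha6 at 0.15. All these neighbours overlapped between the groups.

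RefSeq gave promoter entries for 6 of the 8 members, and the windows of 3 members are shown because their groups were apart, the first of several entries for 5830411N06Rik; the window of Sox13 lies mostly inside its annotated gene and is not shown. Each was searched on both strands for AGGTCA, the core letters that many nuclear receptors bind, and AACAAT, letters that Sox factors bind, which do not overlap, and matches are in capitals. Bases inside the annotated gene were left out.
5830411N06Rik, GRCm38.p6 plus strand, chr7:140247051-140247283: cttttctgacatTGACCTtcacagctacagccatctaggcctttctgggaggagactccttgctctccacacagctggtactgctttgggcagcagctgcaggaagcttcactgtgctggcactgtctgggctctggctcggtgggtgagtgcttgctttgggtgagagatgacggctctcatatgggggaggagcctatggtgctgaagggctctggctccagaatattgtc
Cd163l1, GRCm38.p6 plus strand, chr7:140218017-140218266: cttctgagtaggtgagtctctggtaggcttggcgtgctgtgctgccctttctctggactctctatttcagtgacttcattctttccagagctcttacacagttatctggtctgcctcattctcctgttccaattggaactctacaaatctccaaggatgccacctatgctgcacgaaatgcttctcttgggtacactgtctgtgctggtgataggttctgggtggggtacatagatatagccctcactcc
Il23r, GRCm38.p6 minus strand, chr6:67491856-67492105: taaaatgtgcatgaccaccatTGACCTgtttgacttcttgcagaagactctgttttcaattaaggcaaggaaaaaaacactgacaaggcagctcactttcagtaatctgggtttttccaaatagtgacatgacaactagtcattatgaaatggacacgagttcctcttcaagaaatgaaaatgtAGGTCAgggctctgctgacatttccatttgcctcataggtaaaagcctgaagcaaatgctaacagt
AGGTCA occurred 1 time in the window of 5830411N06Rik, 2 times in that of Il23r and 0 times in that of Cd163l1, and 14.0% of 32851 promoter windows of 250 bases held it. The other entries of 5830411N06Rik held AGGTCA 0 times, as did the window of Sox13, and among members whose groups overlapped it occurred 1 time in the window of Il17a and 1 time in the first window of Ccr6. AACAAT was in none of the 3 windows and in 9.42% of all windows. A direct repeat of AGGTCA with 5 or 2 bases between was in none of the 3. Each spacing was in 0.00913% of all windows, so nothing is read from its absence. A match describes letters and is not a binding site.

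The genes with deviations from the group means most like those of 5830411N06Rik over the 8 mice, among 11823 protein-coding genes, were Cc2d1b with a Pearson r of 0.983, Car5b with 0.972, Igfbp7 with 0.967, Col4a2 with 0.965 and Tie1 with 0.965. Igfbp7, Col4a2 and Tie1 are known from endothelial cells and their matrix. The log2 fold changes of these 5 genes were -0.02, 0.05, 0.19, -0.12 and -0.29 in the same order, and their groups overlapped. For Sox13 the 5 genes were Tmem127 with 0.984, Rhno1 with 0.968, Npr2 with 0.968, Cxcl12 with 0.966 and Dap with 0.965. Their log2 fold changes were 0.11, 0.07, -0.64, 0.06 and -0.10, and of these 5 genes Npr2 alone was apart between the groups, lower in tRA mice. Npr2 had 25 to 74 counts in a mouse. Of all genes tested, 1.63% had all tRA mice below all control mice and 1.91% had them above. With so few genes, nothing is read from this. These r values are the highest of many over few mice and are a description.

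The sample type was checked against its markers. B cell genes were abundant, with Cd79a leading, a summed CPM of 6560 ± 422 (SD, n = 4) in control mice and 6682 ± 129 in tRA mice, a median log2 fold change of 0.05 over 7 genes, 5 positive and 2 negative, and -0.13 for Cd79a. The 10 markers of alpha beta T cells summed to 1642 ± 167 and 1763 ± 33.3, with 8 positive and 2 negative log2 fold changes, a median of 0.11, 0.12 for Trac and 0.18 for Cd4. Natural killer markers summed to 319.9 ± 68.7 and 314.5 ± 19.9, with Gzma at -0.13 and Ncr1 at 0.27. Of 7 natural killer markers, 6 could be tested, 2 positive and 4 negative, with a median of -0.05. Group 3 innate lymphoid markers summed to 190.2 ± 18.2 and 186.7 ± 14.96, with Id2 at -0.04 and Kit at 0.02. Of 5 such markers, 4 could be tested, 3 positive and 1 negative, with a median of 0.03. None of the markers of these cell types was at 0 in all 8 mice.

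Stromal and endothelial markers, whose relatives appear among the genes most like 5830411N06Rik, summed to 246.5, 252.8, 250.9 and 240.6 CPM in control mice and 242.9, 247.8, 254.8 and 244.7 in tRA mice, mostly from Pecam1. Of 8, 5 could be tested, 3 positive and 2 negative, from -0.23 to 0.07, with a median log2 fold change of 0.0017, 0.0017 for Pecam1 and 0.07 for Cdh5, but the median was -0.27 without tRA mouse 3 and had the same sign in 6 of 15 alternatives. Erythroid markers, led by Hbb-bs, summed to 704.4, 1358, 2111 and 438.2 in control mice and 2040, 552.9, 3142 and 519.6 in tRA mice, with log2 fold changes of 0.45 for Hbb-bs and 0.43 for Hba-a1 that became -0.16 and -0.13 without tRA mouse 3. Of the 4 erythroid markers, 3 had positive fold changes and 1 a negative one with all mice kept. Mouse 3 was the highest of each group for the erythroid sum, as it was for 5830411N06Rik and Sox13. This did not hold for every erythroid marker, as Klf1 was at 6.82 CPM in control mouse 2 against 4.36 in control mouse 3. Red pulp macrophage markers summed to 695.2 ± 141 and 635.6 ± 114, with 2 positive and 7 negative log2 fold changes from -0.29 to 0.04, Hmox1 at -0.18 and Vcam1 at -0.04. Their median was -0.18, and it was -0.03 without control mouse 2. The 5 follicular helper markers, 3 positive and 2 negative, had a median of 0.10, with Cxcr5 at 0.11 and Bcl6 at 0.19, genes that B cells also make, Il21 at -0.12 and Pdcd1, named after its value was seen, at -0.21. The 4 regulatory T markers, 2 positive and 2 negative, had a median of -0.12, with Foxp3 at 0.09 and Ctla4 at -0.35, which ranged from -0.75 to -0.12 with 1 mouse left out.

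Some other lists had fold changes opposite in sign to that of 5830411N06Rik, among them the relatives of Maf given above. All 6 neutrophil precursor markers had negative log2 fold changes, with a median of -0.80, and summed to 852.8, 1096, 1113 and 954.3 CPM in control mice and 486.2, 526.2, 499.9 and 815.3 in tRA mice, led by Ngp. Camp at -1.23 had an edgeR FDR = 0.135, and Ngp at -0.92 and Ltf at -0.88 were also apart between groups, whereas S100a9 at -0.58 overlapped. Of these 6 genes 3 had all tRA mice below all control mice, as 1.63% of all genes tested did. edgeR called 0 of the 6 and 0% of all genes tested, and DESeq2 called 4 of the 6 and 0.198% of the genes with an adjusted p. The 4 were Camp, Ngp, Ltf and Lcn2, the last at -0.71 and named after its value was seen. All 6 immediate early and heat shock genes, which respond to handling of cells, had negative log2 fold changes with a median of -0.75. edgeR called 0 of these 6 and 0% of all genes tested, and DESeq2 called 2 of the 6, Egr1 and Jun, and 0.198% of the genes with an adjusted p. Their summed CPM was 11860, 11540, 12660 and 9925 in control mice and 9525, 8630, 4273 and 6068 in tRA mice. The groups were apart, with tRA mice below, for Fosb at -0.71, Jun at -0.58, Egr1 at -0.79 and Hspa1a at -1.35, 4 of the 6 against 1.63% of all genes tested, and overlapped for Fos at -0.52. The margin was narrow between tRA mouse 1 and control mouse 4 for Fosb (2842 against 2851 CPM) and Jun (2094 against 2122). It was also narrow for Hspa1a, at 306.8 CPM in tRA mouse 4 against 316.8 in control mouse 2. In raw counts Fosb and Jun overlapped, with 93036 and 68549 in tRA mouse 1 against 88229 and 65668 in control mouse 4. With 1 mouse left out Hspa1a ranged from -1.63 to -0.89 and Fos from -0.85 to -0.30. Whether the makeup or handling of the samples has a part in the values of the Scart genes and Sox13 was not tested.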

How the data were processed

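Gene counts of 8 mice, deposited by the authors as whole-number read counts per Ensembl gene on GRCm38, were used. The submitters' processing notes name STAR 2.5.2b, featureCounts 1.5.1 and DESeq2 1.26.0, whereas the study's methods name another aligner and counter, and the strand setting is not given in the sources used here. The authors' own table of DESeq2 fold changes and p-values was not used. Genes were named from GENCODE M21, which held 51633 of the 51826 identifiers.

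Counts were filtered with filterByExpr (minimum count 10), scaled by TMM and tested with edgeR 4.0.16 (quasi-likelihood, R 4.3.3) with Benjamini-Hochberg FDR under 0.1 over 16484 genes. The standard error is the log2 fold change over the square root of F. Alternatives were DESeq2 1.42.0, limma-voom 3.58.1, RLE or library size scaling, other filters, a replicate block and leaving out each mouse. The code was tested on simulated data. The total per mouse, 30919272 to 37539631 counts, limits genes with few counts.

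Besides the 8 members, genes named were those of each list that were called, apart between groups or among the 2 most abundant, Trdc, the Tcrg constant genes, Il17f, Blk, Il1r1 and Tcf7, tested genes within 100 kb of the Scart genes and Sox13, and the 5 protein-coding genes with a mean CPM of at least 1 most like 5830411N06Rik or Sox13. Some genes that this rule takes are not reported here. The members and lists were chosen with earlier results of these data known.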

Additional observations from a re-analysis of the deposited data

Results flagged for a closer look

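Of 166 groups of 4 mice examined, 11 had 1 mouse far from the other 3, and chance gives 8.3 at 5% of groups. Trdc was low in tRA mouse 2, at 16.0 CPM against 19.2 to 19.9 in the others. Il17re was low in control mouse 3, at 0.520 CPM against 0.743 to 0.758. In the same mouse Cxcl12 was high at 3.52 CPM against 0.704 to 1.13, Npr2 at 2.14 against 1.27 to 1.39, Dap at 46.0 against 41.6 to 42.3 and Hspa1a at 942.1 against 316.8 to 412.2, and Irf4 was low at 192.5 against 264.6 to 275.7. In tRA mouse 3, Car5b was high at 1.84 CPM against 1.48 to 1.497 and Cdh5 at 6.51 against 3.12 to 3.30. Il12b was high in tRA mouse 1, at 1.19 CPM against 0.567 to 0.651. Camp was high in tRA mouse 4, at 42.7 CPM against 25.2 to 26.9.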

How the results depend on the processing

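The count of genes called was 0 in the edgeR fit, 27 with DESeq2, 6 with no filter, among them 5830411N06Rik, Camp, Ngp and Ltf, and 1 with limma-voom, Camp, and it ranged from 0 to 3 with 1 mouse left out, being 3 without tRA mouse 4, which were Camp, Ngp and Ltf. With DESeq2 and 1 mouse left out, chosen after seeing the data, it ranged from 15 without tRA mouse 2 to 551 without tRA mouse 1. It was 0 with RLE scaling, with library size alone, with at least 10 counts in every sample and with the replicate block. Members called were 0 in the edgeR fit, 2 with DESeq2 and 1 with no filter. Genes at an unadjusted p under 0.05 ranged from 657 without tRA mouse 4 to 2105 without tRA mouse 1.

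With 1 mouse left out the log2 fold change ranged from 1.22 to 1.62 for 5830411N06Rik, 0.59 to 0.85 for Cd163l1, 0.83 to 1.02 for Sox13, 0.55 to 0.86 for Il23r, 0.11 to 0.40 for Ccr6, -0.12 to 0.21 for Zbtb16 and -0.02 to 0.10 for Maf, so that Zbtb16 and Maf have no stable sign. Il23r, Il17rc, Il21 and Csf2 had no value with at least 10 counts in every sample, where the effector cytokine list had none either.

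Some genes changed sign, mostly genes near 0 but also Hbb-bs at 0.45, Hba-a1 at 0.43 and Tie1 at -0.29. With 1 mouse left out the ranges were -0.0885 to 0.16 for Car5b, -0.27 to 0.20 for Cdh5, -0.45 to 0.20 for Col4a2, -0.32 to 0.85 for Cxcl12, -0.0686 to 0.20 for Foxp3, -0.25 to 0.0534 for Gzma, -0.13 to 0.85 for Hba-a1, -0.16 to 0.93 for Hbb-bs, -0.0981 to 0.0189 for Id2, -0.0824 to 0.61 for Igfbp7, -0.18 to 0.36 for Il1b, -0.0391 to 0.19 for Il1r1, -0.37 to 0.12 for Il21, -0.0901 to 0.10 for Il2rb, -0.23 to 0.18 for Irf4, -0.11 to 0.17 for Kit, -0.13 to 0.0773 for Lef1, -0.20 to 0.0302 for Nfkbiz, -0.0847 to 0.0595 for Paox, -0.0123 to 0.0109 for Pecam1, -0.14 to 0.0759 for Tcrg-C2, -0.0349 to 0.16 for Tcrg-C4, -0.0643 to 0.0215 for Tgfb1, -0.00799 to 0.12 for Tgfbr2, -0.75 to 0.0912 for Tie1, -0.0716 to 0.17 for Trdc, -0.0147 to 0.051 for Tyk2 and -0.19 to 0.12 for Vcam1. With library size alone Cc2d1b was 0.00977, Paox 0.023 and Tgfb1 0.00337. With the replicate block Il1b was -0.00314, Irf4 -0.0635, Lef1 -0.00927 and Paox 0.00265. With limma-voom Il21 was 0.00229, Irf4 -0.0644, Lef1 -0.00937 and Paox 0.000543. With at least 10 counts in every sample Lef1 was -0.00102 and Pecam1 -0.000539. The cause was not tested.

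Other genes kept their sign, and 25 of them, Ccr6 included, moved by over 1.5 times with 1 mouse left out. The ranges of the others were 0.12 to 0.28 for Bcl6, 0.077 to 0.21 for Cd5, 0.0098 to 0.13 for Cd6, -0.18 to -0.084 for Cd79a, 0.30 to 0.83 for Csf2, -0.75 to -0.12 for Ctla4, -0.13 to -0.058 for Dap, -0.85 to -0.30 for Fos, -0.41 to -0.19 for Gm45456, -0.30 to -0.029 for Hmox1, -1.63 to -0.89 for Hspa1a, 0.045 to 0.091 for Il17ra, -0.49 to -0.083 for Mafk, 0.15 to 0.39 for Ncr1, -0.38 to -0.074 for Pdcd1, 0.08 to 0.23 for Plekha6, 0.033 to 0.13 for Rhno1, -0.66 to -0.33 for Sox4, -0.49 to -0.23 for Sox5, -0.84 to -0.13 for Sox6, 0.0075 to 0.062 for Stat3, 0.15 to 0.36 for Tcrg-C1, 0.072 to 0.17 for Tmem127 and 0.08 to 0.19 for Trac.

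Same-numbered mice had correlations of deviations of 0.157, -0.0229, -0.014 and 0.259. Only tRA mouse 4 was closest to the control mouse of its own number. These values cannot tell whether same-numbered mice share anything beyond the number. Of the 5 genes most like each gene by Pearson r, 1 for 5830411N06Rik and 4 for Sox13 were also among the highest by Spearman rho. Besides the members, the genes named here that DESeq2 called were Camp, Ngp, Ltf, Lcn2, Egr1 and Jun. With 1 mouse left out, list medians ranged from -0.27 to 0.0082 for stromal and endothelial, -0.26 to 0.70 for erythroid, -0.0837 to 0.10 for scavenger receptor, -0.13 to 0.0412 for high mobility group box, -0.0253 to 0.13 for interleukin 17 lineage factor, -0.0953 to 0.0514 for interferon gamma type, -0.11 to 0.0621 for natural killer and -0.051 to 0.11 for group 3 innate lymphoid genes, and the other lists kept their sign. Of those, 11 moved by over 1.5 times, with medians of 0.06 to 0.17 for gamma delta T cell receptor, 0.044 to 0.14 for other interleukin 17 type, -0.11 to -0.0052 for ligand, 0.079 to 0.18 for axis receptor, 0.0079 to 0.049 for signalling, 0.0096 to 0.48 for effector cytokine, 0.03 to 0.16 for alpha beta T cell, 0.013 to 0.061 for B cell, -0.30 to -0.029 for red pulp macrophage, 0.015 to 0.12 for follicular helper and -0.17 to -0.032 for regulatory T genes. Il17a and Il17f had too few counts to pass the filter and were not tested.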
